A study of Bos taurus with 40 samples.

Results

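The genes described here were 10 apolipoprotein genes, APOA1, APOA2, APOA4, APOA5, APOB, APOC2, APOC3, APOE, APOH and APOM, picked by their symbols from the count tables of a study of sex differences in Korean cattle (Bos taurus). Of the 10, 9 had a row in the tables and APOB had none, so APOB was not analysed here. All 9 had reads in every liver and were among the 13148 genes with at least 1 read, of 13570 genes listed.

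Each of 10 animals, 5 cows and 5 bulls, gave RNA from its pituitary gland, its longissimus dorsi muscle, its abdominal fat and its liver, and the 40 libraries were sequenced. The animals were over 22 months old when slaughtered, their carcasses weighed 353 ± 36 kg, no treatment was given by the labels, and the titles tie the 4 tissues of an animal together. The libraries were from whole tissue, so more cells of a type and more RNA per cell could not be told apart. The depth was 5173092 to 19165864 reads on genes per library.

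Apolipoproteins are the protein coat of lipoproteins, the particles that carry triglyceride and cholesterol in blood. Apolipoprotein A-I is the main protein of high density lipoprotein and activates LCAT, the enzyme that esterifies cholesterol, while the C apolipoproteins and apolipoprotein A-V set how fast lipoprotein lipase removes triglyceride. Apolipoprotein E is the ligand by which remnant particles are taken up through receptors of the LDL receptor family, and it is also made outside the liver, by macrophages among others. By the gene order that RefSeq gives for ARS-UCD2.0, which is not the build the reads were aligned to, APOA5, APOA4, APOC3 and APOA1 lie next to each other on chromosome 15 and APOE and APOC2 lie on chromosome 18 with APOC4 between them. APOA2 is on chromosome 3, APOH on 19 and APOM on 23. In that annotation APOA4 overlaps both APOC3 and APOA1, and APOM overlaps BAG6. Whether the counting used strand was not given in the sources used here, so how reads were split between these overlapping genes is uncertain.

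Levels were expressed as reads per 1000000 reads on genes (CPM), scaled between libraries with TMM factors. They are not corrected for transcript length, so a gene is compared with itself across libraries and not with other genes. The labels were checked first. The liver labelled bull 3 had 1400.8 CPM of XIST, the transcript of the inactive X chromosome, which lay within the 680.6 to 2178.8 CPM of the cows' livers, and no read of the Y-linked USP9Y, DDX3Y or ZFY. Over all genes it was nearest to the liver of cow 4, with a chi-square per degree of freedom of 15.0 against 43.9 to 225.2 for the other liver pairs, so these 2 libraries differed by more than sampling noise and both were kept. The fat labelled bull 5 had 1.78 CPM of USP9Y, where the fat of the other bulls had 28.1 to 34.0 CPM and that of the cows at most 0.130 CPM, and its XIST level of 1.39 CPM was as low as in bulls. Where a test or a direction rested on these 2 libraries, it is also given without them. Each tissue carried its own markers, for example ALB at 71708.7 to 178132.4 CPM in liver and PRL at 63893.7 to 219239.7 CPM in pituitary. Transcripts of other tissues were present at low levels everywhere, such as a median of 54.3 CPM of the pituitary hormone PRL in fat and of 38.7 CPM of ALB in muscle.

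The first comparison asks in which tissue the genes were expressed. All 9 genes were highest in the liver, and they fell into groups by how much was left outside it. APOA2, APOA5, APOC2, APOC3 and APOH were found almost entirely in liver, with fold differences of 2007 to 7614 against the other tissues. APOA1, APOE and APOM kept over 1% of their liver median in every other tissue, and APOA4 was higher in pituitary than in fat or muscle. Together the 9 genes took 0.936% to 2.16% of all gene reads in the livers, 0.0478% to 0.404% in fat, 0.00183% to 0.00770% in muscle and 0.00729% to 0.0176% in pituitary.

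**Figure D1:**
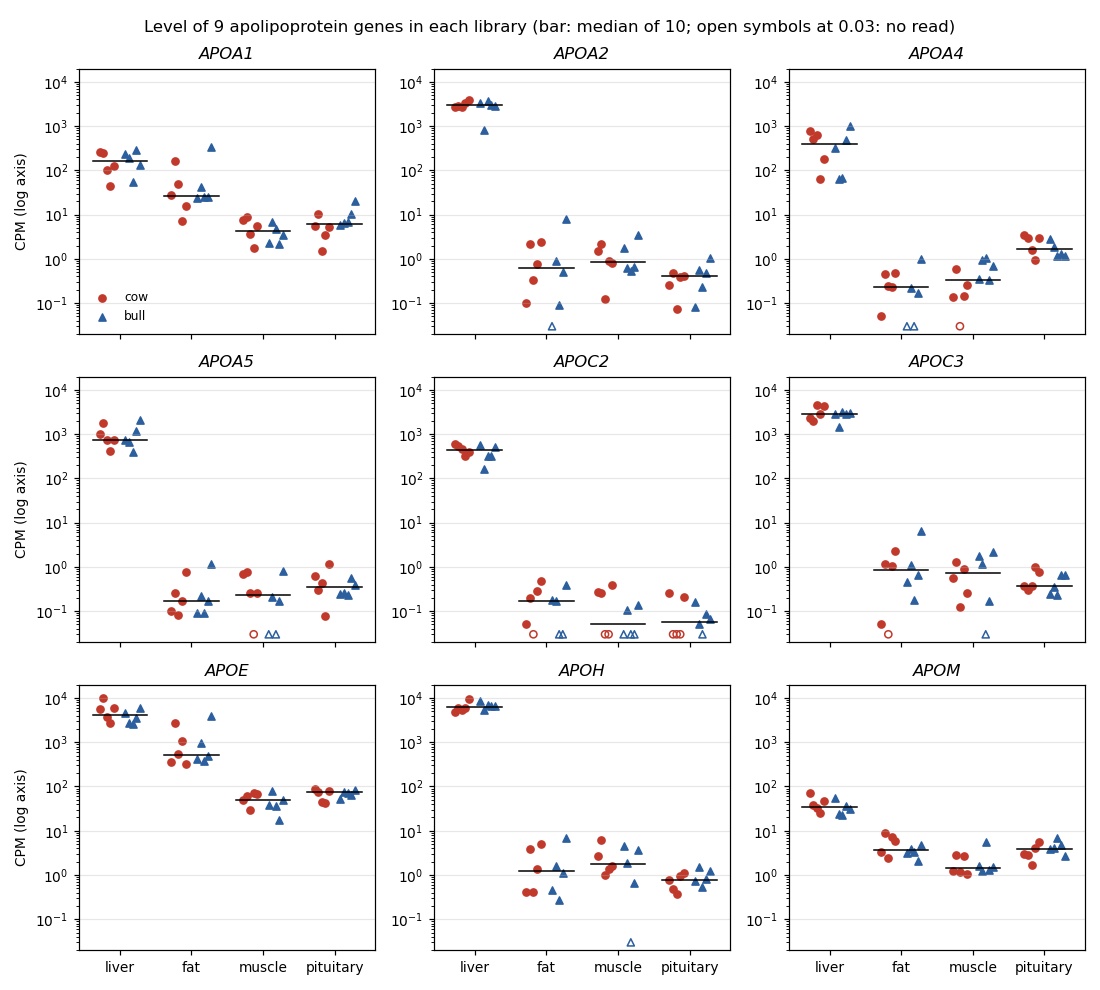
Level of each gene in each of the 40 libraries, as CPM on a log axis, by tissue; circles are cows, triangles are bulls, bars are medians of 10 libraries and open symbols mark libraries without a read. All 9 genes have their highest median in liver, and APOA1, APOE and APOM keep levels above 1 CPM in every library of every tissue.

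Fold changes between tissues are given as the first-named tissue minus the second, and the values after ± are standard errors. Between liver and fat, all 9 genes were called higher in liver by the edgeR quasi-likelihood (QL) test at an adjusted P-value under 0.05, where 28.9% of the 13148 genes were called higher in liver. The median log2 fold change of the 9 genes was 10.97, and that of all genes tested was -0.13. Between liver and muscle all 9 were again higher in liver (28.0% of all genes), with a median log2 fold change of 11.18 against -0.11 over all genes. Between liver and pituitary all 9 were higher in liver (29.4% of all genes), with a median of 11.12 against -0.12. These 3 comparisons share the liver libraries. Every liver was above every muscle and every pituitary for all 9 genes, and above every fat library for 7 of 9, with APOA1 and APOE overlapping. The share of all genes separated in this way is not given here, so these counts stand without a background. Without the 2 libraries that stood out in the label check, 9 of 9 genes were still called in each of these comparisons.

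The members of the high density lipoprotein coat differed from each other. APOA2, which encodes the other main protein of that particle, ranged from 821.7 to 3995.4 CPM in liver with a median of 2988.6 CPM. In fat its median was 0.630 CPM with a highest value of 7.81 CPM in the library labelled bull 5, and in muscle and pituitary the medians were 0.838 and 0.400 CPM. The livers stood far above every other library, and the log2 fold change against pituitary was 12.82 ± 0.55 (QL, adjusted P = 4.06e-19). Outside the liver its order among tissues rests on few reads, with 0 in the fat of bull 1 and at most 25 in any muscle. It was higher in fat than in pituitary by a log2 fold change of 1.85 ± 0.58 (adjusted P = 0.00414) and higher in muscle than in pituitary by 1.63 ± 0.61 (adjusted P = 0.0156). Without the 2 libraries named above, the difference between fat and pituitary was 0.95 with an adjusted P of 0.104 and was no longer called.

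APOA1 followed another pattern. Its liver level was 43.2 to 288.9 CPM with a median of 160.6 CPM, and its fat level was 7.31 to 337.3 CPM with a median of 26.9 CPM, so that the tissues overlapped. In muscle it was at 1.77 to 8.99 CPM and in pituitary at 1.52 to 20.6 CPM. Liver exceeded fat by a log2 fold change of 1.26 ± 0.47 (QL, adjusted P = 0.0199), in 9 of 10 animals, and fat exceeded muscle by 3.83 ± 0.49 (adjusted P = 6.64e-08) and pituitary by 3.24 ± 0.48 (adjusted P = 5.92e-07). Muscle and pituitary did not differ beyond their spread (log2 fold change -0.59 ± 0.50, adjusted P = 0.303). The call between liver and fat was lost when cow 1, bull 1 or bull 4 was left out (adjusted P = 0.0723, 0.0510 and 0.0642). Fitted with the animal as a block, which keeps the pairing of tissues, the difference was 1.83 (QL, adjusted P = 0.000121).

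Within animals, the APOA1 level in fat was 8.50% to 260.0% of the level in the same animal's liver, with a median of 19.4%. Without bull 3 and bull 5, the range over the other 8 animals was 8.50% to 67.7% with a median of 14.7%. Only the fat labelled bull 5, at 337.3 CPM, was above its own liver, which had 129.7 CPM. The fat of cow 2, at 164.7 CPM, was at 67.7% of its liver. In the other 8 animals fat held 7.31 to 49.7 CPM of APOA1. With the fat labelled bull 5 and the liver labelled bull 3 left out, APOA1 was higher in liver than in fat by a log2 fold change of 2.06 (QL, adjusted P = 0.000105) and higher in fat than in pituitary by 2.52.

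**Figure D2:**
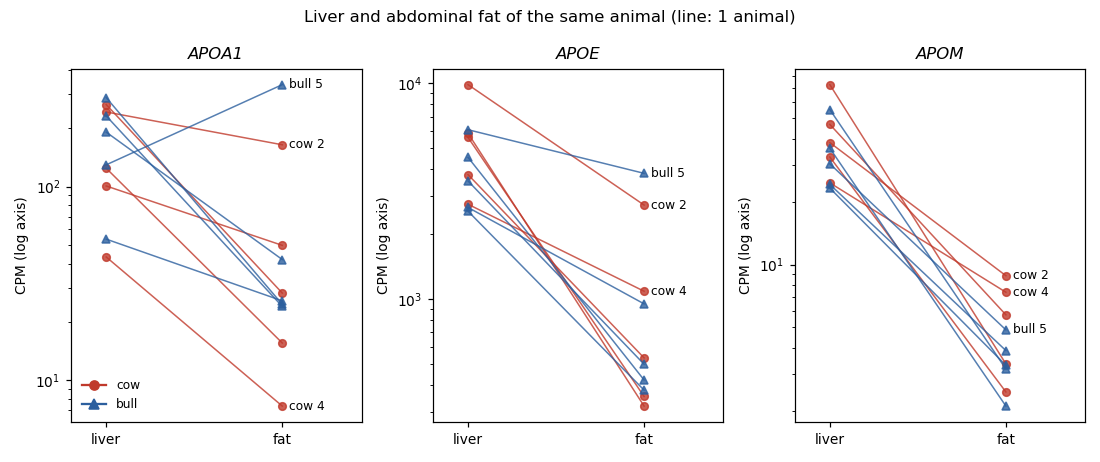
APOA1, APOE and APOM in the liver and the abdominal fat of each animal, in CPM on a log axis; each line joins the libraries of 1 animal, red for cows and blue for bulls. APOA1 falls from liver to fat in 9 of 10 animals and rises only in the pair labelled bull 5, while APOE and APOM fall in 10 of 10.

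APOE, the receptor ligand, was the other gene with a high level in fat. It ranged from 2553.8 to 9862.7 CPM in liver (median 4156.2 CPM) and from 318.9 to 3825.9 CPM in fat (median 515.8 CPM). The lower values were 17.9 to 77.6 CPM in muscle and 43.0 to 89.0 CPM in pituitary. Liver was above fat in 10 of 10 animals, by a log2 fold change of 2.07 ± 0.36 (QL, adjusted P = 8.12e-06). Fat was above muscle by 4.49 ± 0.37 (adjusted P = 2.93e-12) and above pituitary by 4.04 ± 0.36 (adjusted P = 1.84e-11), without a single overlapping library. Without those 2 libraries the difference between liver and fat was 2.62 and that between fat and pituitary 3.54. Muscle and pituitary could not be separated (log2 fold change -0.45 ± 0.37, adjusted P = 0.284).

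The highest fat libraries were the same for APOE as for APOA1. APOE was at 2726.6 CPM in cow 2 and 3825.9 CPM in the library labelled bull 5, and 318.9 to 1086.5 CPM in the other 8. In the library labelled bull 5, 7 of the 9 genes had their highest fat level: APOA1, APOA2, APOA4, APOA5, APOC3, APOE and APOH. Of the marker lists, the 5 adipocyte genes went both ways in that library. FABP4, CIDEC and LEP had their highest fat level there (14447.6, 5351.9 and 2216.1 CPM), while PLIN1 at 1374.9 CPM and LIPE at 692.6 CPM were each the second lowest of the 10, and the sum of the 5 was 24083.3 CPM against 6414.1 to 13786.7 CPM in the other fat libraries. The 7 macrophage genes summed to 849.9 CPM there, the lowest of the 10 fat libraries, and to 1860.9 CPM in cow 2, the highest. Of the 10 hepatocyte genes, 4 had their highest fat level in the library labelled bull 5, namely TTR (17.4 CPM), AMBP (9.97 CPM), SERPINA1 (6.26 CPM) and AHSG (2.47 CPM), and ALB, FGA and HP were second, ALB with 86.6 CPM below the 105.0 CPM of cow 5. The sum of the 10 was 380.3 CPM there, within the 77.4 to 1944.8 CPM of the fat libraries, but TF alone took up to 1805.8 CPM of such a sum, in cow 3, and was at 51.3 CPM in the library labelled bull 5, its second lowest fat level. Of the 7 pituitary endocrine genes, 3 also had their highest fat level there, PRL (128.8 CPM), POMC (58.4 CPM) and GH1 (34.9 CPM), and 5 were first or second. Of the 6 skeletal muscle genes, 0 were first or second. The part of these cell types in the APOA1 and APOE levels was not tested.

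APOM, an apolipoprotein of high density lipoprotein that binds sphingosine 1-phosphate, was at 23.2 to 72.4 CPM in liver with a median of 34.3 CPM. It was at 2.10 to 8.84 CPM in fat, 1.67 to 6.95 CPM in pituitary and 1.05 to 5.55 CPM in muscle. The livers did not overlap any other tissue, and the log2 fold change was 3.09 ± 0.28 against fat and 3.26 ± 0.28 against pituitary (QL, adjusted P = 3.79e-12 and 7.84e-13). Fat and pituitary did not differ beyond their spread (0.17 ± 0.28, adjusted P = 0.612). Both were above muscle, with 1.19 ± 0.30 for fat minus muscle (adjusted P = 0.000824) and -1.02 ± 0.30 for muscle minus pituitary (adjusted P = 0.00330).

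APOA4, a lipid-binding apolipoprotein encoded beside APOC3 and APOA1, had the widest range of the 9 genes among livers, from 62.9 CPM in cow 4 to 1015.5 CPM in bull 5, a 16.1-fold range with a median of 404.6 CPM. Low livers were those of cow 4 at 62.9, bull 2 at 63.5 and the one labelled bull 3 at 68.3 CPM. In pituitary all 10 libraries had 12 to 56 reads of it, at 0.936 to 3.53 CPM, while fat had 0 to 13 reads and muscle 0 to 9 reads. Pituitary was higher than fat, with a log2 fold change of -2.77 ± 0.57 for fat minus pituitary (QL, adjusted P = 2.00e-05), and higher than muscle, with -2.15 ± 0.60 for muscle minus pituitary (adjusted P = 0.00101). Fat and muscle did not differ beyond their spread (-0.63 ± 0.69, adjusted P = 0.438). The median in pituitary was 0.421% of the liver median, above the medians of 0.0105% to 0.346% of the 10 hepatocyte marker genes there. Single libraries overlapped, with 0.231% to 0.874% for APOA4 and 0.118% to 2.23% for the marker SERPINA1.

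The remaining triglyceride-related genes and APOH were, like APOA2, close to 0 outside the liver. APOC3, whose product slows triglyceride removal, was at 1489.1 to 4490.5 CPM in liver and at medians of 0.859, 0.719 and 0.371 CPM in fat, muscle and pituitary. APOC2, which encodes the cofactor of lipoprotein lipase, was at 160.4 to 604.2 CPM in liver and was without a read in 3 fat, 5 muscle and 4 pituitary libraries. APOA5, which encodes an enhancer of triglyceride removal, was at 401.2 to 2087.1 CPM in liver and at no more than 17 reads in any library outside it. APOH, encoding beta-2-glycoprotein I, a plasma protein that binds anionic phospholipids, was at 4707.0 to 9454.9 CPM in liver and at most 6.96 CPM elsewhere. For these 4 genes the log2 fold change against any other tissue was 11.12 to 12.89. These 4 genes, APOA2 and APOA4 gave 60 values in each of the other tissues, of which 20 in fat, 28 in muscle and 11 in pituitary were under 3 reads.

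Among fat, muscle and pituitary, APOA5 and APOC2 gave no call in any pair (QL, adjusted P up to 0.806), although without cow 1 APOC2 was called higher in fat than in pituitary (log2 fold change 1.43, adjusted P = 0.0380). APOH was higher in fat than in pituitary by a log2 fold change of 1.33 ± 0.47 (adjusted P = 0.0115) and also higher in muscle than in pituitary (adjusted P = 0.00559), by 2.84-fold, while fat and muscle did not differ beyond their spread (-0.17 ± 0.46, adjusted P = 0.769). APOC3 was higher in fat than in pituitary by 1.40 ± 0.53 (adjusted P = 0.0186), and muscle was apart from neither. Fitted with the animal as a block, the APOC3 difference was 1.01 with an adjusted P of 0.0716. APOH and APOC3 were also fitted without the 2 libraries that stood out in the label check. The fat to pituitary difference was then 0.89 for APOH (adjusted P = 0.0832) and 0.65 for APOC3 (adjusted P = 0.226). Neither was called.

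Over the 9 genes, 3 were called higher in fat than in muscle (APOA1, APOE and APOM; 32.8% of all genes) and 0 higher in muscle (26.8% of all genes). Their median log2 fold change was 0.39, beside 0.13 over all genes. Between fat and pituitary, 5 were higher in fat (31.8% of all genes) and 1, APOA4, was higher in pituitary (32.8%). Without the 2 libraries named above, 3 were called: APOA1 and APOE, higher in fat, and APOA4, higher in pituitary. Between muscle and pituitary, APOA2 and APOH were higher in muscle (31.5% of all genes) and APOA4 and APOM higher in pituitary (32.5%). With 9 genes, counts of 2 or 3 are near the shares over all genes. Of the 9, 0 were higher in muscle than in fat at an unadjusted P-value under 0.05 as well, and DESeq2 and the edgeR likelihood ratio test called 0.

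Levels outside the liver were also set against those of the hepatocyte markers, as percentages of the liver median. APOA1, APOE and APOM had medians of 10.5% to 16.7% of the liver median in fat, 1.18% to 4.15% in muscle and 1.76% to 11.4% in pituitary. The 10 hepatocyte markers included ALB, the fibrinogen genes and AMBP. Their medians were 0.0180% to 1.23% in fat, 0.0302% to 0.0524% in muscle and 0.0105% to 0.346% in pituitary. The medians of the 3 genes were above that of every marker in each tissue. APOA2, APOA5, APOC2, APOC3 and APOH had 0.0199% to 0.0400% in fat, 0.0121% to 0.0315% in muscle and 0.0124% to 0.0466% in pituitary, close to ALB at 0.0202%, 0.0331% and 0.0133%. Markers of the other tissues were found away from home at similar shares, with a median over 7 pituitary endocrine genes of 0.0371% of their pituitary level in fat and of 0.0401% in liver, and over 6 skeletal muscle genes of 0.0214% of their muscle level in fat. The source of these reads was not tested. Differences between fat, muscle and pituitary in APOA2, APOC3 and APOH are differences at this level.

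**Figure D3:**
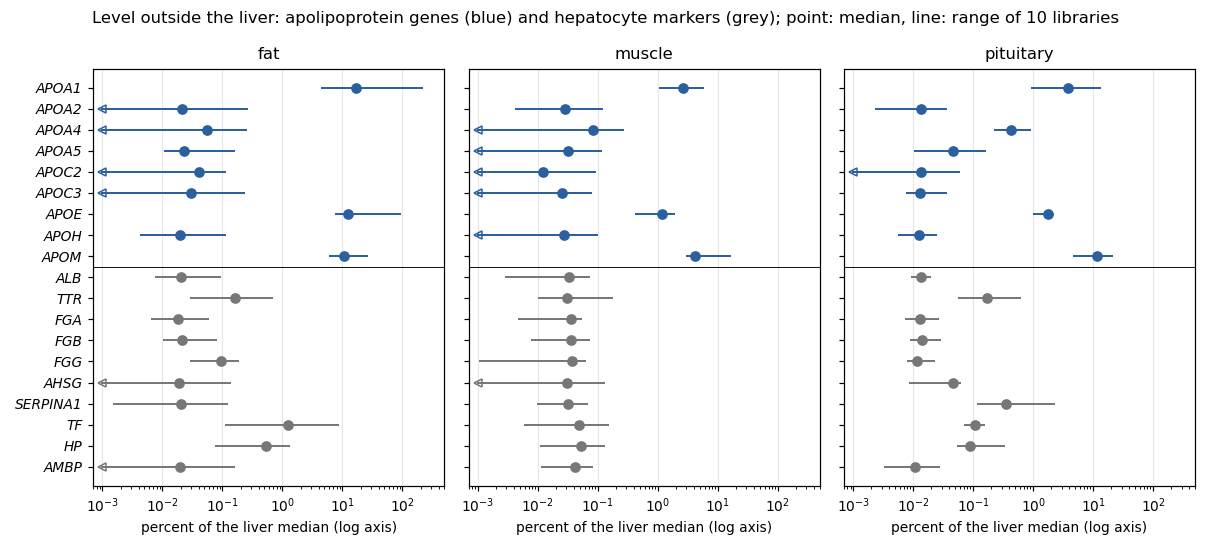
Level of the 9 apolipoprotein genes (blue) and 10 hepatocyte markers (grey) in fat, muscle and pituitary as a percentage of each gene's liver median, on a log axis; points are medians and lines the range over 10 libraries, and open arrowheads mark a lowest value of 0. The points of APOA1, APOE and APOM lie to the right of every marker's point, at 1.18% or more, and those of APOA2, APOA5, APOC2, APOC3 and APOH lie at the low end, at 0.0466% or less.

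The second comparison, which is the one the study was designed for, asks whether the genes differed between cows and bulls. None of the 9 was called in any tissue by the edgeR likelihood ratio test (LRT) within tissues, the study's model M1. The count was 0 of 9 in liver, where 0.175% of all genes were called, 0 in fat (0.114%), 0 in muscle (0.517%) and 0 in pituitary (0.745%). With sex and tissue fitted together over 40 libraries, the study's model M2, it was 0 of 9 (1.69% of all genes), and the interaction of sex with tissue also gave 0 of 9 (0.335%). At shares this low, 0 of 9 is not a result about these genes. At an unadjusted P-value under 0.05 the LRT gave APOA4 in muscle and APOA1 in pituitary, the QL test gave 0, and DESeq2 and the QL test called 0 of 9 in each tissue. The sexes overlapped for all 9 genes in all 4 tissues. Of the 13148 genes, the share whose sexes did not overlap ran from 0.548% (liver) to 1.65% (muscle). An overlap of all 9 is therefore close to the background and is not a result about these genes either.

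In liver the standard errors of the 9 estimates were 0.30 to 0.68. APOE had 5613.9, 9862.7, 3774.1, 2750.8 and 5864.5 CPM in cows 1 to 5 and 4538.3, 2658.1, 2553.8, 3526.6 and 6095.4 CPM in bulls 1 to 5. The cows held the highest value, but the ranges overlapped. The log2 fold change from cows to bulls was -0.50 with a 95% interval of -1.22 to 0.22 (LRT, adjusted P = 0.884), and -0.40 without the liver labelled bull 3. For APOH it was 0.13 with an interval of -0.45 to 0.71, the narrowest of the 9, and for APOA4 it was -0.12 with the widest liver interval, -1.45 to 1.22. Of the 9 genes 6 were lower and 3 higher in bulls, and without the liver labelled bull 3 the split was 5 and 4, with APOA4 changing direction to 0.13.

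In fat the direction of most of the 9 genes depended on single libraries. With all 10 libraries, 5 genes were higher and 4 lower in bulls, with log2 fold changes of -0.70 to 0.96. APOA1 had 28.1, 164.7, 49.7, 7.31 and 15.5 CPM in cows 1 to 5 and 24.0, 41.9, 25.6, 24.6 and 337.3 CPM in bulls 1 to 5. Except for the library labelled bull 5, the bulls lay within the range of the cows. The fold change of APOA1 was 0.75 (interval -0.93 to 2.43, adjusted P = 0.895) and -0.88 without the fat labelled bull 5 (adjusted P = 0.781). Without that library all 9 genes were lower in bulls, by log2 fold changes of -1.57 to -0.57, 5 of them having changed sign, and 0 were called (smallest adjusted P = 0.685). That fit kept the fat of cow 2, the highest of the cows for APOA1. With other single libraries left out, estimates also turned positive, up to 0.43 for APOH, 0.26 for APOA4 and 0.09 for APOC2. That of APOA1 reached 1.82. All but APOA1, APOE and APOM were close to 0 in fat, with 20 of 60 values under 3 reads. With all libraries, 8 of 10 hepatocyte markers also had a higher median in cows' fat, beside 1 of 7 pituitary endocrine and 1 of 6 skeletal muscle markers. Their part in this direction was not tested.

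In muscle APOA4 had 1, 7, 0, 1 and 2 reads in cows 1 to 5 and 2, 9, 4, 2 and 5 reads in bulls 1 to 5. The log2 fold change was 1.36 with an interval of -0.07 to 2.80 (LRT, adjusted P = 0.449; QL, 0.540). APOC2, with at most 3 reads in any muscle, had the widest interval of all, -3.95 to 1.07. In pituitary APOA1 had 5.62, 10.2, 1.52, 3.51 and 5.33 CPM in cows 1 to 5 and 5.74, 6.61, 6.87, 10.4 and 20.6 CPM in bulls 1 to 5. The bulls were higher by a log2 fold change of 0.94 (interval 0.05 to 1.82; LRT, adjusted P = 0.498; QL, 0.582), with 2 bulls above the highest cow. The 10 hepatocyte markers all had higher medians in the bulls' pituitaries too. Other lists went the same way, with 0 of 5 adipocyte, 6 skeletal muscle and 7 pituitary endocrine markers having a higher median in cows. All 7 macrophage markers had a higher median in cows. The part of these cell types in the APOA1 difference was not tested. APOE in pituitary had the narrowest interval within a tissue, -0.37 to 0.54 around 0.09.

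Over the 4 tissues together the largest estimate was -0.42 for APOC2 (interval -0.98 to 0.15; LRT, adjusted P = 0.451), followed by 0.36 for APOA1 (-0.28 to 1.01; adjusted P = 0.603). Without the 2 libraries that stood out in the label check, APOA1 was at 0.01 and 8 of 9 genes were lower in bulls. Of the 9, 0 were called. With the animal as a block, in limma voom, 0 of 9 were called and the smallest adjusted P was 0.743. The smallest adjusted P of the interaction was 0.852, for APOM (LRT), and 0 of 9 had an unadjusted P-value under 0.05 there or over the 4 tissues.

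**Figure D4:**
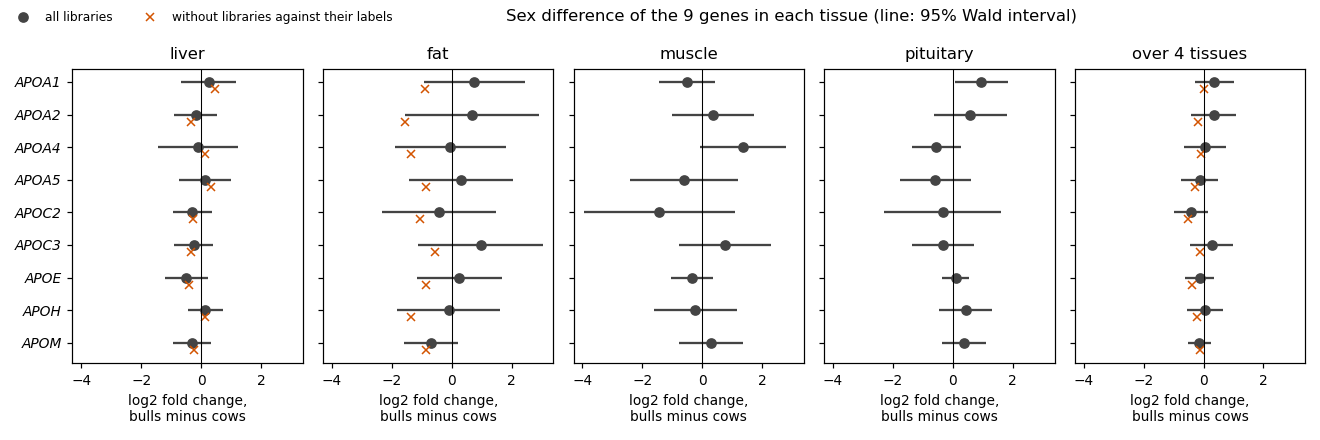
Log2 fold change from cows to bulls of the 9 genes within each tissue and over 4 tissues. Points are LRT estimates with 95% Wald intervals. Crosses are the estimates without the libraries that stood out in the label check. All intervals but that of APOA1 in pituitary (0.05 to 1.82) hold 0, and in fat all 9 crosses lie below 0.

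The rest of the lipoprotein pathway was read from 60 tested genes of 83 listed, namely other apolipoproteins and paraoxonases, receptors, lipases and acyltransferases, assembly factors, sterol transporters, regulators and transcription factors. By sex, 0 of 60 were called in liver (0.175% of all genes) and in fat (0.114%), 1 in muscle (0.517%), 1 in pituitary (0.745%), 3 over the 4 tissues (1.69%) and 0 by the interaction (0.335%) (LRT). At these shares, counts of 0 or 1 in 60 are near the background. The QL test called 0 of 60 within each tissue and 1 over the 4 tissues.

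In muscle the gene was ABCG1, a transporter that passes cholesterol to high density lipoprotein. It had 11.4, 32.9, 7.11, 19.8 and 8.28 CPM in cows 1 to 5 and 4.52, 3.36, 1.32, 3.15 and 2.63 CPM in bulls 1 to 5, without overlap. The log2 fold change was -2.39 ± 0.46 (LRT, adjusted P = 0.000479; QL, 0.0914), and the call held with any single library left out. All 7 macrophage markers also had a higher median in the muscle of cows, and 1 of the 7, CD14, which was looked up after its value was seen, was called by sex (LRT). Their sum was 289.5 to 507.4 CPM in cows and 93.1 to 328.6 CPM in bulls, and cow 2 was the highest and bull 3 the lowest library for both this sum and ABCG1. The part of these cells in the ABCG1 difference was not tested. In pituitary the gene was PON1, a paraoxonase carried on high density lipoprotein, at 0.684 to 1.23 CPM in cows and up to 6.49 CPM in bulls, all above the cows. The hepatocyte markers, higher there in the bulls by their medians for 10 of 10 genes, had sums of 96.7 to 250.3 CPM in bulls and 72.6 to 114.4 CPM in cows. That direction was not particular to them, with 0 of 5 adipocyte, 6 skeletal muscle and 7 pituitary endocrine markers having a higher median in cows. The part of these markers' cells in the PON1 difference was not tested. The log2 fold change of PON1 was 1.81 ± 0.43 (LRT, adjusted P = 0.00968; QL, 0.154), and the call was lost without cow 1, cow 2 or bull 3 (adjusted P = 0.0502, 0.0510 and 0.0584).

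Over the 4 tissues APOD, an apolipoprotein of the lipocalin family, was lower in bulls by a log2 fold change of -1.42 ± 0.33 (LRT, adjusted P = 0.00861; QL, 0.0443). ABCG1 was lower by -1.01 ± 0.28 (adjusted P = 0.0359) and STAB1, a scavenger receptor of endothelium and macrophages, by -0.73 ± 0.20 (adjusted P = 0.0305). The macrophage markers had higher medians in cows for 7 of 7 genes in muscle and in pituitary, 3 of 7 in liver and 1 of 7 in fat. The APOD levels of the cows were uneven, and in fat cow 4 had 15.0 CPM and cow 3 had 1895.5 CPM. Cows 1 to 3 were above every bull in all 4 tissues. Cow 4 was below every bull in fat, muscle (21.3 CPM) and pituitary (48.3 CPM). Cow 5 was below every bull in fat and within their range in muscle and pituitary. With the animal as a block (limma voom) the adjusted P-values were 0.629 for APOD, 0.484 for ABCG1 and 0.429 for STAB1. Without the 2 libraries named above they were 0.0148, 0.0658 and 0.0531 (LRT). With 1 animal left out at a time, the largest was 0.0887, 0.186 and 0.203, and the call was lost in 4, 6 and 6 of 10 cases.

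Between tissues, calls among the pathway genes went in both directions. Of the 60 genes, 32 were higher in liver than in fat (28.9% of all genes) and 21 higher in fat (35.4%) by the QL test. Against muscle, 40 were higher in liver (28.0% of all genes) and 12 in muscle (34.0%), and against pituitary 46 were higher in liver (29.4%) and 10 in pituitary (35.1%). Their median log2 fold change was 1.20 against fat, 1.71 against muscle and 2.65 against pituitary, beside -0.13, -0.11 and -0.12 over all genes. Among the largest differences from fat were those of SAA4 (11.82 ± 0.48), which encodes a serum amyloid A of lipoproteins, and APOF (11.59 ± 0.53). Against muscle they were those of NR1H4, the bile acid receptor (12.29 ± 1.26), APOC4 (12.12 ± 1.34) and SAA4 (11.90 ± 0.61). Against pituitary they were those of APOC4, SAA4 (13.21 ± 0.66) and HNF4A, a hepatocyte transcription factor (12.70 ± 0.53). APOC4, which lies between APOE and APOC2, had a liver median of 111.5 CPM and 0 reads over the 10 pituitaries, so with 3 reads as the limit per library it was at least 459.7-fold higher in liver.

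Likeness was measured as Pearson's r of log2(CPM + 1) over the 40 libraries, which share tissues and animals, and is given as a description. APOA2 was most like VTN (0.998), AMBP (0.997) and HPX (0.996), and APOH most like PLG (0.998), GC (0.998) and ALB (0.998), all of them genes of plasma proteins. APOC3 was most like MGC137014 (0.997), VTN (0.997) and LOC511240 (0.997), and APOC2 was like UGT2B10 (0.998) and PRHOXNB (0.998). APOA5 was nearest to PROC (0.997), OTC (0.996) and OIT3 (0.996), and APOA4 to HAL, TMEM171 and NR1I2 (0.976 each). The genes expressed outside the liver had looser partners: ACAA1 (0.972), FAH (0.969) and GAT (0.964) for APOE, HGFAC (0.960), KHK (0.956) and FOXRED1 (0.953) for APOM, and ACAA1 (0.920), STARD5 (0.918) and CTSZ (0.914) for APOA1.

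Within liver, the spread between animals was compared between genes. APOH varied least, with a highest value 2.01 times the lowest, and APOA1, APOA5 and APOA4 varied most, with ranges of 6.68-fold, 5.20-fold and 16.1-fold. The liver of bull 2 had the lowest level of 3 genes, with 821.7 CPM of APOA2 where the other livers had 2743.2 CPM or more, 1489.1 CPM of APOC3 and 160.4 CPM of APOC2. The liver labelled bull 3 had the lowest level of 3 others, APOA5, APOE and APOM, and cow 4, its nearest liver, had the lowest of APOA1 and APOA4.

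Of the 36 pairs that the 9 genes form, 0 were correlated across the 10 livers at an adjusted P-value under 0.05 (permutation test of Pearson's r with 100000 resamples, two-sided, Benjamini-Hochberg over 36 pairs). By unadjusted permutation P, 9 pairs were under 0.05, and 6 were without the liver labelled bull 3, while 28 of 36 had a positive r over the 10 livers. The closest pair was APOA4 and APOA5, neighbours on chromosome 15, with r = 0.81 (permutation P = 0.00514, adjusted P = 0.107) and rho = 0.78 (permutation P = 0.0107, adjusted P = 0.129). It had r = 0.80 without the 2 livers farthest from the APOA4 median and r = 0.76 without the liver labelled bull 3 (exact permutation P = 0.0191, adjusted P = 0.180). APOA5 and APOE gave r = 0.78 (permutation P = 0.00754, adjusted P = 0.107) and rho = 0.82 (permutation P = 0.00544, adjusted P = 0.108), and r = 0.60 without the 2 farthest livers and 0.73 without the liver labelled bull 3.

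APOC2 and APOE, of the chromosome 18 cluster, gave r = 0.73 (permutation P = 0.0146, adjusted P = 0.118) and rho = 0.72 (permutation P = 0.0230, adjusted P = 0.162), and r = 0.76 without the 2 farthest livers and 0.73 without the liver labelled bull 3. APOA2 and APOC3 gave r = 0.72 (permutation P = 0.0164, adjusted P = 0.118) but rho = 0.45 (permutation P = 0.192, adjusted P = 0.407), and r = 0.05 without the 2 farthest livers, so that relation rested on those livers, while without the liver labelled bull 3 it was 0.72. APOA1 and APOA5 had r = 0.66 (permutation P = 0.0377, adjusted P = 0.170) and rho = 0.71 (permutation P = 0.0270, adjusted P = 0.162), but r = 0.18 without the 2 farthest livers and 0.55 without the liver labelled bull 3, so that relation also rested on a few livers.

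**Figure D5:**
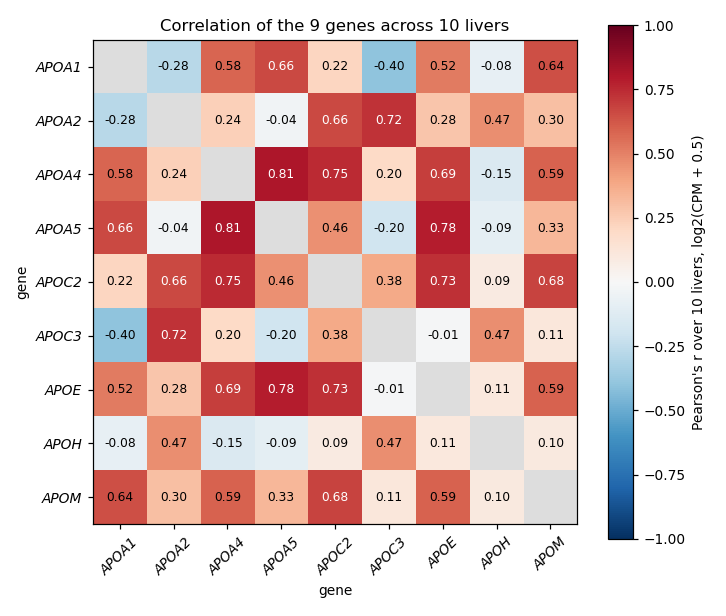
Pearson's r between the 9 genes over 10 livers, on log2(CPM + 0.5), from -1 (blue) to 1 (red). The highest values are 0.81 for APOA4 and APOA5, 0.78 for APOA5 and APOE, and 0.75 for APOA4 and APOC2. APOA5 and APOC2 gave 0.46, below the 0.72 of APOA2 and APOC3. None of the 36 pairs passed an adjusted P-value of 0.05.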

How the data were processed

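Per the labels and the methods of the study, total RNA was made into poly-A libraries and sequenced on an Illumina HiSeq instrument in paired ends. The authors used Trimmomatic to remove adapters, ran TopHat2 with Bowtie2 against bosTau7 of UCSC, handled alignments with SAMtools and counted reads per gene of the UCSC annotation with HTSeq. The deposited files hold these raw counts, 1 table per library, without normalization. How HTSeq treated strand and overlapping genes was not given in the sources used here, and a row without a gene name and the HTSeq summary lines were left out. Groups came from the labels of sex and tissue, and the animal number in the titles ties the 4 tissues of an animal together. Nothing in the labels gives sequencing batches.

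Genes without a read in any library were left out of the tests. Sex was tested with edgeR 4.0.16 likelihood ratio tests on counts, as the study did, within each tissue (M1), over the 40 libraries with tissue as a term (M2), and as an interaction. The tissues were compared with edgeR's quasi-likelihood test with sex as a term on the 40 libraries. P-values were adjusted with Benjamini-Hochberg over all 13148 genes, and a call is an adjusted P under 0.05. Fold changes carry Wald standard errors or 95% intervals. Within a tissue these cover the spread between animals and the counting error. In the fits over 40 libraries they take the 4 libraries of an animal as independent. CPM used TMM factors over the 40 libraries. DESeq2 1.42.0, quasi-likelihood and likelihood ratio tests, RLE factors, library sizes alone, a stricter count filter, an animal block and leaving out libraries were alternatives. For sex over the 4 tissues and the interaction, the block was fitted in limma 3.58.1 voom. Between tissues it was edgeR's quasi-likelihood test with the animal as a term in place of sex. The fits were tested on simulated data.

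Same-animal libraries come from the same animal by their titles, which makes them pairs between tissues. The median correlation of their deviations from the group means was 0.0285 (liver and fat) to 0.324 (fat and muscle). M2 treats the 4 libraries of an animal as independent, and the block fits do not.

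In a pair of libraries, a chi-square over genes with at least 10 summed reads was set against sampling noise. The named genes were all members present, pathway genes called by sex, up to 3 pathway genes per liver contrast by fold change, and the 3 genes most like each member; 2 genes that this rule names are not reported here. The 10 genes, the pathway lists and the marker lists were chosen with earlier results of these data known. The correlations in liver used log2(CPM + 0.5). They had been planned for 45 pairs and, with APOB without a row, were made for 36. No sequences were used here.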

Additional observations from a re-analysis of the deposited data

Results flagged for a closer look

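In each of the 72 groups made by a gene, a tissue and a sex, with 5 libraries each, the highest or lowest library was flagged where its gap to the nearest other exceeded 0.71 of the whole range (Dixon's ratio). The rate of about 1 in 20 groups for this limit holds for independent, normally distributed values. The ratio was taken on CPM without logs and the genes share libraries, so that rate is not an expectation for these groups. Of the 72 groups, 13 were flagged.

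The fat labelled bull 5 accounted for 7 of the 13. It had 337.3 CPM of APOA1 against 24.0 to 41.9 CPM in the fat of the other bulls, and 3825.9 CPM of APOE against 378.1 to 949.5 CPM. It also had 7.81 CPM of APOA2 against at most 0.886 CPM, 6.57 CPM of APOC3 against at most 1.11 CPM, 6.96 CPM of APOH against at most 1.61 CPM, 1.16 CPM of APOA5 against at most 0.221 CPM and 1.005 CPM of APOA4 against at most 0.221 CPM. These last genes rest on 13 to 101 reads in that library. It is the library with 1.78 CPM of USP9Y where the other bulls' fat had 28.1 CPM or more. Over all genes its median correlation with the other fat libraries was 0.915, the lowest of the 10, which had up to 0.972. The part of these properties in the flags was not tested.

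Among cows, the fat of cow 2 had 164.7 CPM of APOA1 against 7.31 to 49.7 CPM in the fat of the other cows. The fat of cow 5 had 0.787 CPM of APOA5, from 10 reads, against at most 0.260 CPM. In liver, bull 2 had 1489.1 CPM of APOC3 against 2834.9 to 3149.9 CPM in the other bulls, and cow 5 had 9454.9 CPM of APOH against 4707.0 to 5909.7 CPM in the other cows. In muscle, bull 5 had 0.829 CPM of APOA5, from 6 reads, against at most 0.210 CPM, and bull 3 had 5.55 CPM of APOM, from 21 reads, against 1.26 to 1.56 CPM in the other bulls.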

How the results depend on the processing

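The count of genes called by sex was 0 of 9 within each tissue, over the 4 tissues and for the interaction under every alternative, animals left out one at a time (range 0 to 0) and the replicate block (0) included. The all-gene calls were 23, 15, 68 and 98 in liver, fat, muscle and pituitary by the likelihood ratio test and 1, 3, 7 and 12 by the quasi-likelihood test, 222 and 77 over the 4 tissues, and 44 and 0 for the interaction, and the block in limma voom left 8 over the 4 tissues. Between tissues, 9 of 9 were called higher in liver under all alternatives, except that leaving out 1 animal gave 8 to 9 between liver and fat, APOA1 being lost. Between fat and pituitary the count was 6, 5 with the animal as a block (replicate block), 4 to 7 with 1 animal left out and 3 without the liver labelled bull 3 and the fat labelled bull 5, and without bull 5 alone APOC3 and APOH were lost (adjusted P = 0.198 and 0.0749). The block changed no other call of the 9 genes. Fat and muscle gave 3 and muscle and pituitary 4 throughout, and the liver pairs 0 by Pearson, by Spearman and without the liver labelled bull 3. Of the alternatives for single genes, 63 of 681 changed the sign of a sex estimate, none of them called. Scaling by library size alone moved the median sex difference of all genes to -0.13 (liver), -0.21 (fat), -0.15 (muscle) and -0.13 (pituitary) on the log2 scale. Depth limits the genes outside the liver, where 59 of 180 values of the 6 lowest genes were under 3 reads.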

Other observations

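Genes of the lipoprotein pathway were also counted among fat, muscle and pituitary, each called by the edgeR quasi-likelihood test at an adjusted P under 0.05, and the lists as such were not tested. Of all genes, 32.8% were higher and 26.8% lower in fat than in muscle, 31.8% were higher and 32.8% lower in fat than in pituitary, and 29.4% were higher and 35.1% lower in liver than in pituitary. Of 10 lipoprotein receptors and uptake genes, 7 were higher in fat than in muscle and 1 lower, and 7 were higher in fat than in pituitary and 2 lower. Of 7 lipases, transfer proteins and acyltransferases, 4 were higher in fat than in muscle and 0 lower, and 3 were higher in fat than in pituitary and 1 lower. Of 12 other apolipoproteins and paraoxonases, 7 were higher in fat than in muscle and 2 lower, and 8 were higher in fat than in pituitary and 1 lower. The 8 genes of particle assembly were divided, with 4 higher and 2 lower in fat than in muscle, and 2 higher and 3 lower in fat than in pituitary. Of 16 transcription factors of liver genes, 15 were higher in liver than in pituitary and 0 lower, and 9 were higher and 4 lower in fat than in pituitary. Of the 60 pathway genes together, 28 were higher and 8 lower in fat than in muscle, and 31 were higher and 13 lower in fat than in pituitary.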
